A study of Mus musculus with 8 samples.

Results

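The nuclear genes for the subunits of the mitochondrial respiratory chain and ATP synthase were followed, complex by complex, in αTC1-6, a glucagon-producing mouse cell line derived from pancreatic alpha cells. Members were the protein-coding genes whose symbols begin with Ndufa, Ndufb, Ndufc, Ndufs, Ndufv, Uqcr, Cox4i, Cox5, Cox6, Cox7, Cox8 or Atp5, together with Cyc1 and Sdha to Sdhd, with the Ndufaf assembly factors left out. This gave 87 gene IDs with 86 symbols among 75078 IDs in the table, 21712 of which are annotated as protein coding. They fell into 37 IDs for complex I, 4 for complex II, 9 for complex III, 19 for complex IV and 18 for complex V. Ndufa4 was counted with complex IV, where its protein is now placed, and its paralog Ndufa4l2 stayed with complex I by its symbol. A second ID with the symbol Atp5o had 0 counts in all 8 libraries.

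One group of cells had been transfected with a plasmid that overexpresses the transcription factor Yy1 (4 libraries, numbered 45 to 48 in the sample titles), and the other with an empty plasmid (4 libraries, numbered 31 to 34). All cells were of the same line, were transfected 24 h after seeding and were kept in DMEM labelled 11 mM. The labels give neither the time of harvest nor whether each sample was a culture of its own. The spread behind every p-value is therefore that between these samples and may be technical. Libraries were strand-specific and made from poly(A) RNA.

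Complex I takes electrons from NADH and complex II from succinate, and both pass them by way of ubiquinone to complex III, which hands them through cytochrome c to complex IV, where oxygen is reduced. Complexes I, III and IV pump protons across the inner mitochondrial membrane, and complex V uses the gradient to make ATP, which in islet cells links fuel supply to membrane potential and hormone release. All subunits of complex II are encoded in the nucleus, while the other complexes combine nuclear subunits with a few encoded by mitochondrial DNA. In mouse skeletal muscle cells YY1 is known to act with PGC-1α on mitochondrial genes.

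The libraries held between 20679804 and 33347445 estimated counts, with the lowest total in empty plasmid 33 and the highest in Yy1 plasmid 47. Levels are given as CPM, the count relative to library size, with library sizes scaled by TMM, a normalization that sets most genes equal between libraries. Yy1 itself stood at 5233 ± 464 CPM with the Yy1 plasmid and 175 ± 5.33 CPM with the empty plasmid (SD, n = 4 each), with a fitted log2 fold change of 4.90 ± 0.0619 (SE, adjusted p = 7.38e-24 by edgeR). Counts per gene do not separate plasmid transcripts from those of the cells' own gene. Gcg, the glucagon gene, stood at 21291 ± 372 CPM with the Yy1 plasmid and 21228 ± 547 CPM with the empty plasmid (SD, n = 4 each). Ins1, Ins2 and Ppy, which mark other islet cells, had 0 counts in all libraries, but not every such marker was absent. Of 7 beta cell markers checked, 3 had enough counts to be tested. Together the 7 summed to 49.0 to 58.9 CPM per library with the Yy1 plasmid and 53.0 to 57.8 CPM with the empty plasmid. Of 9 alpha cell markers, 1 had 0 counts in all libraries. In bulk RNA, fewer cells of a type and less RNA per cell cannot be told apart.

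Nearly all members were expressed, and the paralogs known from muscle and testis were low or at 0. After a filter on low counts, 80 of the 87 IDs were tested: 36 of complex I, all 4 of complex II, all 9 of complex III, 14 of complex IV and 17 of complex V. The 7 left out were Ndufa4l2, Cox4i2, Cox6b2, Cox7b2, Cox8b, Cox8c and the second Atp5o ID. Per kilobase of annotated transcript, the highest level was that of Atp5b, the catalytic beta subunit of ATP synthase, with 1041 CPM per kb over all libraries. Atp5a1, which encodes the alpha subunit, had 475 CPM per kb. The median level per kb over the tested members was 91.6 CPM in complex I, 101 CPM in complex II, 130.4 CPM in complex III, 261 CPM in complex IV and 211 CPM in complex V. Within complex I the level per kb was lowest for Ndufb4, an accessory subunit of the membrane arm, at 11.8 CPM. This level is uncertain, since reads may be shared with Ndufb4c, annotated as its processed pseudogene. Over all libraries Ndufb4c averaged 16.1 CPM and Ndufb4 11.4 CPM.

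Complex IV holds several pairs of tissue-specific paralogs, and a single member of most pairs carried the expression. Cox4i1, the common form of the largest nuclear subunit, had 527 CPM per kb, while Cox4i2, a form known from lung, had 0, 0, 0 and 1 counts with the Yy1 plasmid and 2, 1, 0 and 0 with the empty plasmid. Cox6a1 had 249, 239, 253 and 234 CPM with the Yy1 plasmid, against 229, 251, 217 and 243 CPM with the empty plasmid. Its striated muscle paralog Cox6a2 had 8, 10, 11 and 12 counts with the Yy1 plasmid and 9, 12, 11 and 7 with the empty plasmid, the lowest level of any tested member. Per kb of transcript Cox6a1 stood at 419 CPM and Cox6a2 at 0.519 CPM, and neither gene separated the plasmids. Cox6b1 had 188, 188, 194 and 183 CPM with the Yy1 plasmid, against 182, 177, 199 and 169 CPM with the empty plasmid. The testis form Cox6b2 had 3, 1, 2 and 0 counts with the Yy1 plasmid and 1, 0, 0 and 2 with the empty plasmid. The common form was thus far above the other in all 8 libraries.

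Cox7a2, the form found in most tissues, had 95.4, 83.7, 89.9 and 83.5 CPM with the Yy1 plasmid, against 93.3, 81.9, 83.6 and 79.3 CPM with the empty plasmid. Cox7a2l, a related protein known to join complexes III and IV into supercomplexes, had 82.2, 79.6, 79.6 and 79.2 CPM with the Yy1 plasmid, against 80.3, 80.7, 82.9 and 78.9 CPM with the empty plasmid. The muscle form Cox7a1 was low but present, with 4.72, 5.08, 5.93 and 4.61 CPM with the Yy1 plasmid, against 4.84, 4.78, 4.95 and 4.83 CPM with the empty plasmid. Per kb of transcript these 3 genes had 131, 74.7 and 12.6 CPM. Cox7b had 139, 132, 136 and 139 CPM with the Yy1 plasmid, against 137, 129, 143 and 131 CPM with the empty plasmid, and its testis paralog Cox7b2 had 2, 1, 0 and 0 counts with the Yy1 plasmid and 0, 4, 0 and 0 with the empty plasmid. The plasmids overlapped for all of these. Cox8a, the common form of the smallest subunit, had 235, 212, 219.6 and 181 CPM with the Yy1 plasmid, against 216, 225, 199 and 214 CPM with the empty plasmid. Its muscle and testis paralogs Cox8b and Cox8c had 0 counts in every library, where a count of 0 allows up to 0.145 CPM in the library of lowest depth. Ndufa4l2, which low oxygen is known to induce, had 9, 1, 3 and 8 counts with the Yy1 plasmid and 5, 3, 0 and 4 with the empty plasmid. None of these rare paralogs separated the plasmids, and their counts are too low to show a difference.

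Atp5g1, Atp5g2 and Atp5g3 encode the same mature subunit c, which forms the rotating ring of ATP synthase. Atp5g3 had 418, 405, 429 and 384 CPM with the Yy1 plasmid, against 408, 431, 345 and 391 CPM with the empty plasmid. Atp5g1 had 255, 235, 261 and 239 CPM with the Yy1 plasmid, against 248, 254, 223 and 238 CPM with the empty plasmid. Per kb, Atp5g3 stood at 559 CPM, Atp5g1 at 91.3 CPM and Atp5g2 at 19.5 CPM. Without division by length, they averaged 401, 244 and 11.4 CPM over all libraries. Atp5g3 was thus the highest of the 3 by either measure in both groups. The size of its lead over Atp5g1 depends on their annotated lengths, 718.5 nucleotides for Atp5g3 and 2675.5 for Atp5g1.

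**Figure D1:**
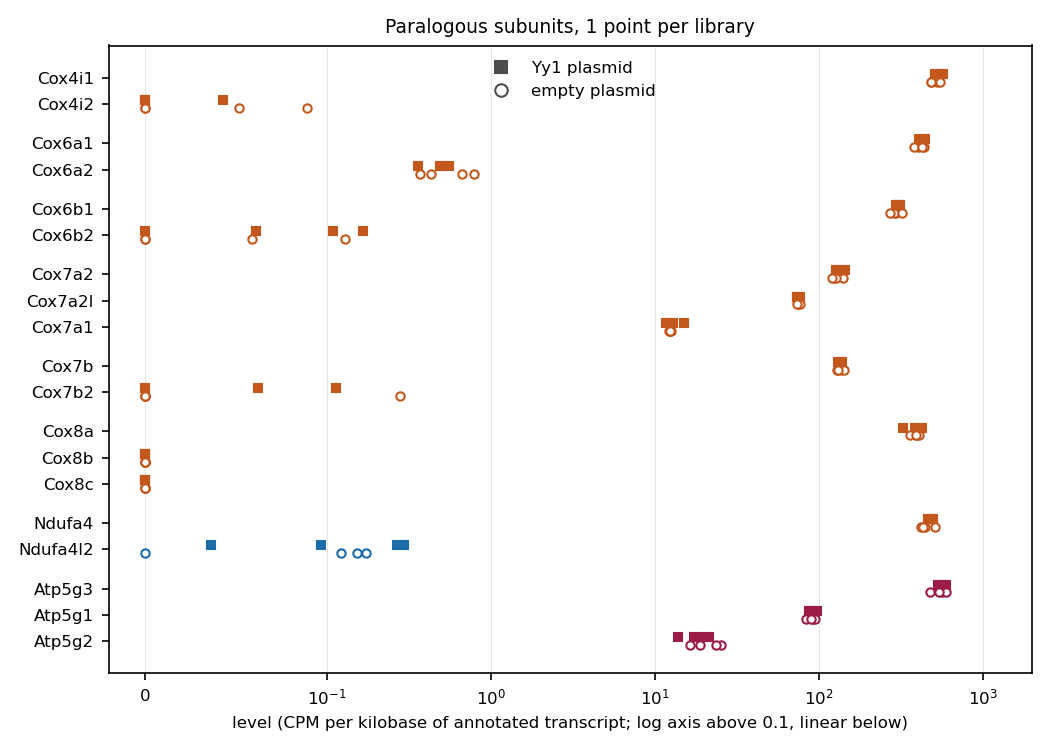
Levels of paralogous subunits in CPM per kilobase of annotated transcript, 1 point per library, with filled squares for the Yy1 plasmid and open circles for the empty plasmid (log axis above 0.1, linear below). Cox4i1, Cox6a1, Cox6b1, Cox7a2, Cox7b, Cox8a and Ndufa4 stand far above their rare paralogs in all 8 libraries, and squares and circles overlap for every gene.

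With the Yy1 plasmid the subunits of all 5 complexes stayed close to their level with the empty plasmid. Of the 80 tested members, 0 passed edgeR's quasi-likelihood test at an adjusted p under 0.05. Over all tested genes 82 of 15916, or 0.515%, passed. Among the 12466 tested protein-coding genes, 9 passed with higher and 3 with lower values with the Yy1 plasmid. An unadjusted p under 0.05 was found for 3 members, or 3.75%, against 5.42% of all tested genes in either direction. All 3 had higher values with the Yy1 plasmid, where 3.23% of all tested genes had such a p with higher values. DESeq2 and limma-voom also called 0 members, with 3 and 4 members at an unadjusted p under 0.05, all higher with the Yy1 plasmid. In either direction, such a p was found for 4.35% of all tested genes by DESeq2 and 5.64% by limma-voom. Fitted log2 fold changes ran from -0.24 for Atp5g2 to 0.19 for Ndufb4. The median over the members was 0.038, where that over all tested genes was -0.0025, and 58 of the 80 values were above 0. The 95% interval lay within 1.2-fold in either direction for 70 of the 80 members, against 9261 of all 15916 tested genes. Among tested protein-coding genes it did so for 8973 of 12466. The 10 members with wider intervals were Ndufa1, Ndufa2, Ndufab1, Ndufb4, Ndufb6, Cox5b, Cox6a2, Cox7a1, Atp5g2 and Atp5k. For these, changes of more than 1.2-fold are within the interval.

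**Figure D2:**
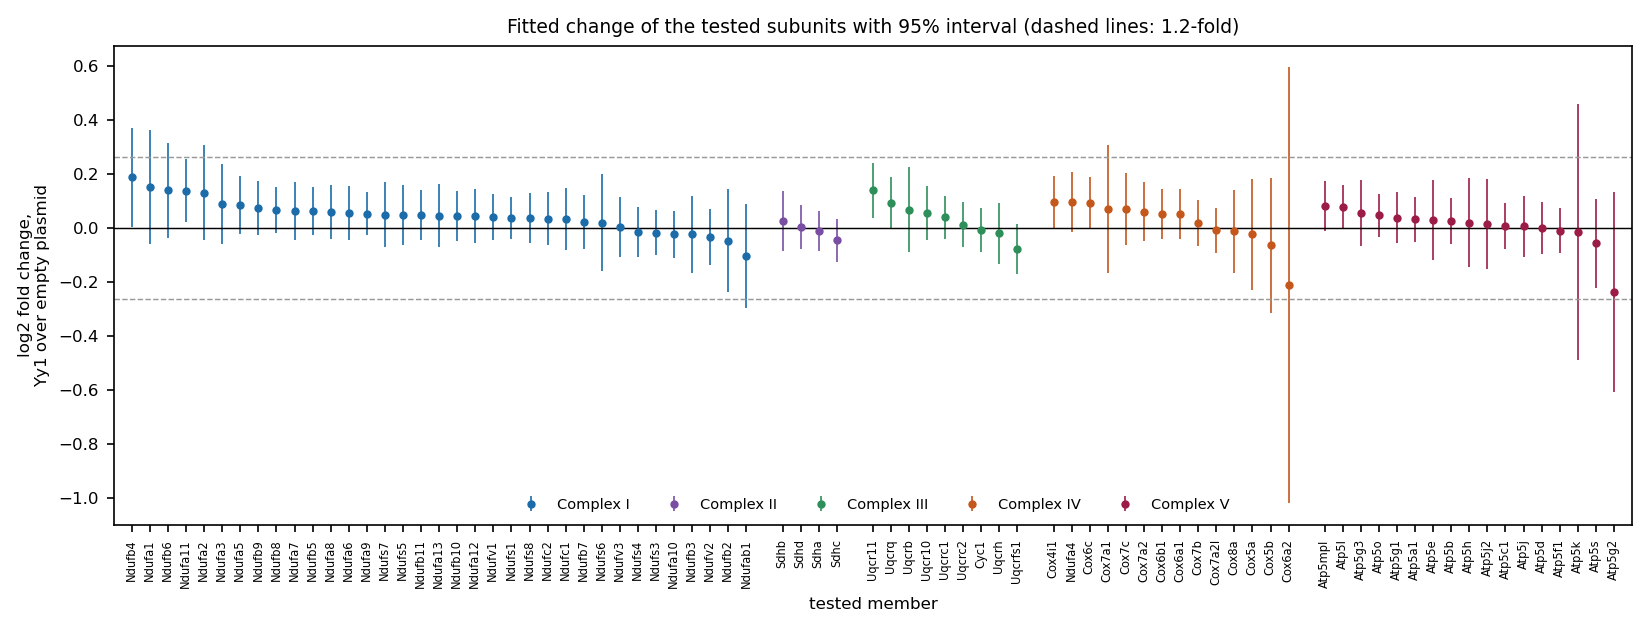
Fitted log2 fold change of the tested subunits (1 is not drawn), Yy1 over empty plasmid, with its 95% interval, grouped by complex and ordered by value (vertical axis in log2 units). The values run from -0.24 for Atp5g2 to 0.19 for Ndufb4, and 70 of the 80 intervals lie within the dashed lines at 1.2-fold.

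The summed level of each complex shows the spread between libraries beside that between plasmids. Complex I summed to 3669, 3495, 3648 and 3426 CPM in Yy1 plasmid 45 to 48, against 3537, 3406, 3564 and 3381 CPM in empty plasmid 31 to 34. Complex IV summed to 2452, 2267, 2389.7 and 2188 CPM with the Yy1 plasmid, against 2278, 2227, 2316 and 2183 CPM with the empty plasmid. In both complexes the odd-numbered libraries were the higher ones within each plasmid, and the groups overlapped. Complex II had means of 783 ± 10.2 CPM with the Yy1 plasmid and 789.9 ± 25.2 CPM with the empty plasmid, and complex III had 1256 ± 31.2 CPM with the Yy1 plasmid and 1237 ± 48.7 CPM with the empty plasmid (SD, n = 4 each). Complex V had 5823 ± 92.6 CPM with the Yy1 plasmid and 5719 ± 171 CPM with the empty plasmid (SD, n = 4 each). The sum of all 87 members was 2.05% higher with the Yy1 plasmid, less than the SD between libraries, at 13746 ± 361 CPM with the Yy1 plasmid and 13470 ± 381 CPM with the empty plasmid (SD, n = 4 each).

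**Figure D3:**
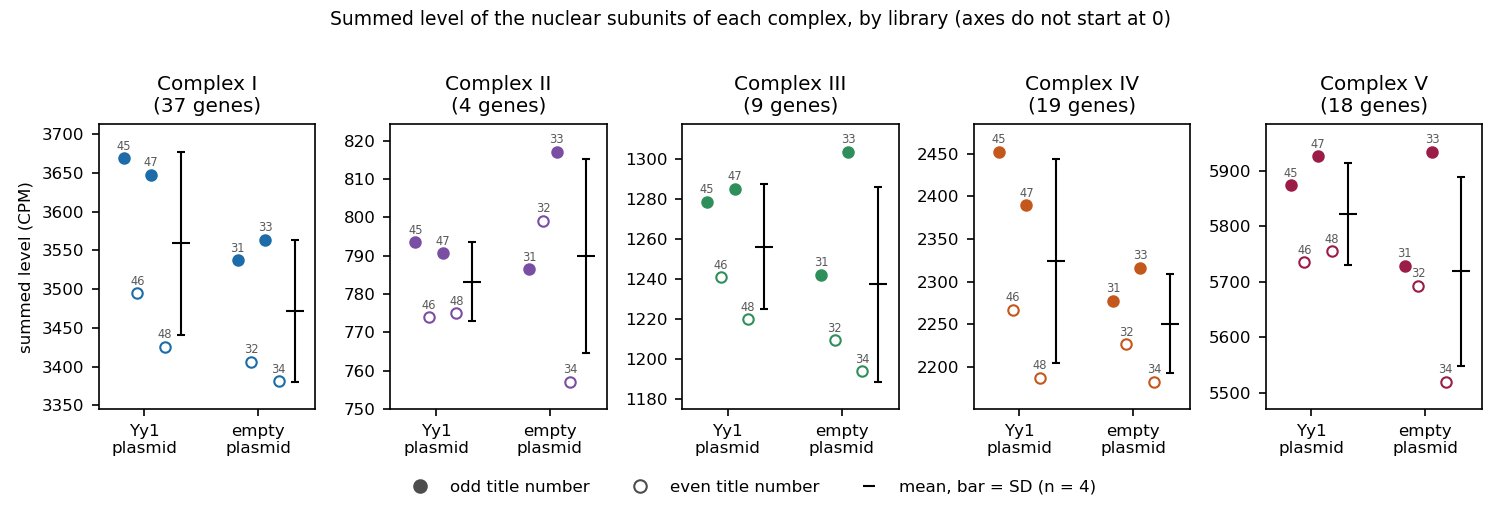
Summed level in CPM of the nuclear subunits of each complex, 1 point per library, Yy1 plasmid left of empty plasmid, filled for odd and open for even title numbers, with the mean and SD of each group (n = 4). The 2 plasmids overlap in every complex, and in complexes I, III and IV every odd-numbered library lies above every even-numbered one.

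In complex I, the catalytic subunits did not pass the test between the plasmids. Ndufv1, which binds NADH and FMN, averaged 145 ± 4.07 CPM with the Yy1 plasmid and 141 ± 5.33 CPM with the empty plasmid (SD, n = 4 each). Ndufs1, an iron-sulphur subunit of the same module, averaged 329 ± 6.29 CPM with the Yy1 plasmid and 320.5 ± 7.09 CPM with the empty plasmid (SD, n = 4 each). Among other core subunits, the fitted log2 fold changes were -0.032 for Ndufv2, -0.017 for Ndufs3, 0.048 for Ndufs7 and 0.036 for Ndufs8. Over the 36 tested members the median log2 fold change was 0.046, with 29 above 0 and 2 at an unadjusted p under 0.05. The 3 members with the smallest p were all accessory subunits of the membrane arm. Ndufa11 had 41.4, 38.7, 45.3 and 41.3 CPM with the Yy1 plasmid, against 37.5, 39.8, 34.5 and 39.4 CPM with the empty plasmid. The groups overlapped through Yy1 plasmid 46, which lay below empty plasmid 32 and 34, with a fitted log2 fold change of 0.14 ± 0.0564 (SE, adjusted p = 0.733 by edgeR) and an exact permutation p of 0.0857. Ndufb4 had 12.9, 11.2, 12.7 and 12.04 CPM with the Yy1 plasmid, against 11.2, 11.0, 8.63 and 11.7 CPM with the empty plasmid. Empty plasmid 33 was the lowest and Yy1 plasmid 46 lay within the empty plasmid range, with a fitted log2 fold change of 0.19 ± 0.0882 (SE, adjusted p = 0.909 by edgeR) and an exact permutation p of 0.0857. Reads of Ndufb4 may be shared with Ndufb4c, annotated as its processed pseudogene, so its value is uncertain. Ndufb6 had 64.6, 52.3, 63.4 and 52.3 CPM with the Yy1 plasmid, against 56.5, 53.1, 47.3 and 54.0 CPM with the empty plasmid. Yy1 plasmid 45 and 47 were the highest of the 8 while 46 and 48 lay below 3 of the empty plasmid libraries, with a fitted log2 fold change of 0.14 ± 0.0803 (SE, adjusted p = 0.952 by edgeR).

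Complex II, succinate dehydrogenase, had log2 fold changes on both sides of 0, with a median of -0.0046. Sdhc, a membrane anchor, had 205, 202, 209 and 205 CPM with the Yy1 plasmid, against 207, 219, 217 and 204 CPM with the empty plasmid. Empty plasmid 32 and 33 lay above all Yy1 plasmid libraries, with a fitted log2 fold change of -0.046 ± 0.0385 (SE, adjusted p = 0.98 by edgeR). Sdhb, the iron-sulphur subunit, had 152, 143, 149 and 142 CPM with the Yy1 plasmid, against 143, 147, 160.1 and 128 CPM with the empty plasmid. Empty plasmid 33 and 34 were the highest and the lowest of the 8, with a fitted log2 fold change of 0.025 ± 0.053 (SE, adjusted p = 0.997 by edgeR). Sdha, the flavoprotein that oxidizes succinate, had 319.8, 316, 318 and 321 CPM with the Yy1 plasmid, against 324, 319, 328 and 315 CPM with the empty plasmid, and the groups overlapped fully with a fitted log2 fold change of -0.012 ± 0.0363 (SE, adjusted p = 0.997 by edgeR). Sdhd, the other anchor, averaged 113 ± 4.31 CPM with the Yy1 plasmid and 113 ± 0.995 CPM with the empty plasmid (SD, n = 4 each).

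In complex III the median log2 fold change was 0.039 over 9 members, and the accessory subunit Uqcr11 had the smallest p of all members. Uqcr11 had 111, 101, 116 and 106 CPM with the Yy1 plasmid, against 105, 97.8, 102 and 90.5 CPM with the empty plasmid. Yy1 plasmid 45, 47 and 48 lay above all empty plasmid libraries and Yy1 plasmid 46 did not, with a fitted log2 fold change of 0.14 ± 0.0494 (SE, adjusted p = 0.565 by edgeR) and an exact permutation p of 0.0857. Uqcrq, another accessory subunit, had 79.7, 75.1, 78.6 and 76.7 CPM with the Yy1 plasmid, against 67.5, 72.6, 79.4 and 71.9 CPM with the empty plasmid. Empty plasmid 33 alone lay within the Yy1 plasmid range and the other 3 lay below it, with a fitted log2 fold change of 0.093 ± 0.047 (SE, adjusted p = 0.912 by edgeR). Uqcrfs1, the Rieske iron-sulphur protein, had 134, 120.5, 122 and 120.4 CPM with the Yy1 plasmid, against 126, 127, 134 and 137 CPM with the empty plasmid. Yy1 plasmid 45 stood with the empty plasmid libraries and the other 3 lay below them, with a fitted log2 fold change of -0.078 ± 0.0441 (SE, adjusted p = 0.946 by edgeR). Cyc1, which encodes cytochrome c1, had a log2 fold change of -0.0084. The values were 0.011 for Uqcrc2, a core protein with the highest CPM of the complex, and 0.067 for Uqcrb, an accessory subunit.

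In complex IV the median log2 fold change was 0.052 over 14 tested members, 9 of them above 0. Cox4i1 had 426, 386, 435 and 398 CPM with the Yy1 plasmid, against 397, 412, 364 and 367 CPM with the empty plasmid. Yy1 plasmid 45 and 47 were the highest and the groups overlapped, with a fitted log2 fold change of 0.095 ± 0.0475 (SE, adjusted p = 0.911 by edgeR). Cox6c, a small subunit beside the catalytic core, had 246, 231, 241 and 231 CPM with the Yy1 plasmid, against 235, 211, 237 and 207 CPM with the empty plasmid. Empty plasmid 32 and 34 lay below all Yy1 plasmid libraries and 31 and 33 among them, with a fitted log2 fold change of 0.093 ± 0.0461 (SE, adjusted p = 0.909 by edgeR). Ndufa4 had 266, 246, 266 and 248 CPM with the Yy1 plasmid, against 235, 225, 272 and 228 CPM with the empty plasmid. Empty plasmid 33 was the highest of the 8 and the other 3 lay below all Yy1 plasmid libraries, with a fitted log2 fold change of 0.095 ± 0.0529 (SE, adjusted p = 0.946 by edgeR). The fitted log2 fold changes of Cox6a1, Cox6b1, Cox7a2, Cox7b and Cox8a were 0.052, 0.053, 0.06, 0.019 and -0.013.

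In complex V the median log2 fold change was 0.020 over 17 tested members, and the most abundant subunits differed little. Atp5b averaged 2012 ± 23.6 CPM with the Yy1 plasmid and 1976 ± 75.7 CPM with the empty plasmid (SD, n = 4 each), and Atp5a1 averaged 1186 ± 28.1 CPM with the Yy1 plasmid and 1160.2 ± 29.8 CPM with the empty plasmid (SD, n = 4 each). Atp5l, which encodes subunit g of the membrane part, had 118, 119, 121 and 119 CPM with the Yy1 plasmid, against 116, 107, 115 and 115 CPM with the empty plasmid. It was the only member whose libraries did not overlap between the plasmids in the higher direction, 1 of 80 members against 2.37% of all tested genes. No member had libraries wholly lower with the Yy1 plasmid, against 1.57% of all tested genes. For Atp5l the fit gave a fitted log2 fold change of 0.077 ± 0.0395 (SE, adjusted p = 0.923 by edgeR), and the exact permutation p of 0.0286 is the smallest that 4 against 4 libraries allow. Atp5mpl, a small proteolipid of the synthase, had 85.4, 82.0, 88.0 and 82.3 CPM with the Yy1 plasmid, against 81.4, 77.0, 85.3 and 75.8 CPM with the empty plasmid. Empty plasmid 33 lay within the Yy1 plasmid range and the other 3 below it, with a fitted log2 fold change of 0.081 ± 0.0449 (SE, adjusted p = 0.946 by edgeR). Atp5g2, the rare form of subunit c, had 11.2, 12.6, 10.2 and 8.09 CPM with the Yy1 plasmid, against 14.8, 11.1, 9.56 and 13.8 CPM with the empty plasmid. Empty plasmid 31 and 34 lay above all Yy1 plasmid libraries, with a fitted log2 fold change of -0.24 ± 0.164 (SE, adjusted p = 0.978 by edgeR) and the lowest fitted value of any member. Atp5s, known as coupling factor B, had the lowest CPM of the complex and averaged 9.82 ± 0.231 CPM with the Yy1 plasmid and 10.2 ± 0.666 CPM with the empty plasmid (SD, n = 4 each).

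A single library of either group moved how many members came near the threshold. Without empty plasmid 33, the library of lowest depth, 16 members had an unadjusted p under 0.05 with higher values with the Yy1 plasmid and 1 with a lower value, where 6.87% of all tested genes had such a p and 3.93% with higher values. Without Yy1 plasmid 47 there were 0 members, against 5.08% of all tested genes. In both cases 0 members passed after adjustment. Empty plasmid 33 was the highest of its group for 39 of the 80 members, as was Yy1 plasmid 45 of its own, and the even-numbered libraries 48 and 34 were the lowest of theirs for 41 and 32. With odd or even title number as a term in the fit, 0 members were called and 10 had an unadjusted p under 0.05, all with higher values with the Yy1 plasmid, where 6.62% of all tested genes had such a p and 3.82% with higher values. The medians also moved with single libraries. With each library left out in turn, the median over all members lay between 0.017, without empty plasmid 34, and 0.050, without Yy1 plasmid 48. That of complex I lay between 0.029 and 0.055, that of complex III between 0.014 and 0.047 and that of complex IV between 0.022 and 0.067. Complex V lay between -0.0011, without empty plasmid 34, and 0.041, without empty plasmid 33, and complex II between -0.026, without empty plasmid 34, and 0.0044, without Yy1 plasmid 48, so the direction of neither held with each library left out.

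Some member promoters hold the letters that YY1 is known to bind, and they are shown because they let the members be split by a feature the expression data did not choose. Windows of 300 bases, from 250 before to 50 after the annotated start, were taken from RefSeq on the mouse build GRCm38.p6 and matched 69 of the 86 member symbols in 74 windows. Each motif was searched on both strands. The letters AAGATGGC, a YY1 motif, were found in 10 of the 74 windows, or 13.5%, against 2.75% of all 32851 windows and 4.36% of the 12764 windows of tested protein-coding genes. The looser AANATGGC, which includes these matches, was found in 17 windows, or 23.0%, against 6.05% and 8.31% in the same 2 sets. The NRF1 motif GCATGCGC was found in 10 windows, or 13.5%, against 2.71% and 5.19%, and the ETS motif CCGGAAG in 16, or 21.6%, against 8.86% and 17.2%. No member held both AAGATGGC and the NRF1 letters. The 10 genes with AAGATGGC were Ndufa3, Ndufa9, Ndufb8, Ndufc1, Ndufs4, Ndufs6 and Ndufs7 of complex I and Atp5f1, Atp5j and Atp5j2 of complex V, with 0 in complexes II, III and IV. The 17 symbols without a window include Sdhc of complex II and Cyc1, Uqcrb, Uqcrc2 and Uqcrq of complex III. Cox4i1, Cox4i2, Cox6a2, Cox6c and Cox8c of complex IV also had no window, so the search did not cover every member of these complexes. In 8 of the 10 the letters lay after the annotated start and covered the annotated start codon, the ATG inside the motif. Matches of these letters are a description and do not show that the factor binds there.

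Stretches of 30 bases around the letters are shown 5′ to 3′ in the direction of the gene, with the motif in capitals.
Ndufa3: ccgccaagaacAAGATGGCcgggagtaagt
Ndufb8: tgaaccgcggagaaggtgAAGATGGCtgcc
Ndufs6: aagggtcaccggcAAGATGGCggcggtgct
Atp5j2: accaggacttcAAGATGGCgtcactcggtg
Atp5j: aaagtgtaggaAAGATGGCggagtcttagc
Atp5f1: atgtgcgagcgGCCATCTTgctcctgcccc
On GRCm38.p6 they lie at chr7:3617384-3617413 on the plus strand for Ndufa3, chr19:44555393-44555422 on the minus strand for Ndufb8 and chr13:73328433-73328462 on the minus strand for Ndufs6. Those of complex V lie at chr5:145191500-145191529 on the minus strand for Atp5j2, chr16:84835046-84835075 on the minus strand for Atp5j and chr3:105959248-105959277 on the minus strand for Atp5f1. In the first 4 the motif covers the start codon. In Atp5j it begins 88 bases before the start, and in Atp5f1 it begins 3 bases before the start on the opposite strand and so reads GCCATCTT.

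The median plasmid log2 fold change was 0.026 over the 10 members with AAGATGGC, 8 of them above 0, and 0.037 over the 56 tested members whose windows lack it, 39 of them above 0. Values of the 10 ran from -0.014 for Ndufs4, an accessory subunit of the matrix arm, to 0.089 for Ndufa3, an accessory subunit of the membrane arm. Ndufb8, of the membrane arm, had 0.065, and Atp5j2, which encodes subunit f of ATP synthase, had 0.015. Atp5f1, which encodes subunit b of the peripheral stalk, had -0.010.

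Genes that serve the chain from outside the member set gave no calls between the plasmids either. All 13 subunits encoded by mitochondrial DNA were tested and 0 were called, with a median log2 fold change of -0.019. The smallest p among them belonged to mt-Nd6, a complex I subunit, at 45.0 ± 4.06 CPM with the Yy1 plasmid and 56.3 ± 9.74 CPM with the empty plasmid (SD, n = 4 each), with a fitted log2 fold change of -0.32 ± 0.129 (SE, adjusted p = 0.906 by edgeR). The next was mt-Co1, the catalytic subunit of complex IV, with -0.064. Of 46 assembly factors, which help to build the complexes, 0 were called and the median was 0.017. Tmem126b, which acts in complex I assembly, had -0.11 ± 0.0434 (SE, adjusted p = 0.692 by edgeR), and Tmem70, which acts in ATP synthase assembly, had -0.12 ± 0.0511 (SE, adjusted p = 0.774 by edgeR). Of 6 tested mobile carriers and dehydrogenases that feed the chain, 0 were called, with 0.059 for Gpd2, the mitochondrial glycerol-3-phosphate dehydrogenase, and 0.049 for Etfa, a subunit of the electron transfer flavoprotein. Of 12 regulators of mitochondrial genes, 0 were called, with 0.036 for Tfam, which packages mitochondrial DNA and helps start its transcription, and 0.041 for Esrra, an orphan nuclear receptor.

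The same libraries were also compared by the odd or even number in their titles, with the plasmid kept as a term, since each plasmid has 2 libraries of each kind. The labels do not say whether these numbers stand for anything. Of the 80 members, 6 were called higher in odd-numbered libraries and 0 lower by edgeR at an adjusted p under 0.05. Over all 16429 tested genes 102 were called, or 0.621%, and those called higher were 62, or 0.377%. An unadjusted p under 0.05 was found for 30 members, all higher in odd-numbered libraries, against 11.1% of all tested genes in either direction. The median log2 fold change was 0.067 over the members and -0.00017 over all tested genes, and 71 of the 80 values were above 0. By complex, the medians were 0.079 in complex I, 0.030 in complex II, 0.057 in complex III, 0.085 in complex IV and 0.046 in complex V. In 14 members every odd-numbered library lay above every even-numbered one, against 3.55% of all tested genes.

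Of the 6 members called, 3 belong to complex I, 1 to complex IV and 2 to complex V. Ndufs6, a zinc-binding accessory subunit of the matrix arm (ENSMUSG00000021606), had 59.1, 58.6, 56.7 and 61.4 CPM in libraries 45, 47, 31 and 33, against 50.4, 51.3, 47.2 and 51.6 CPM in libraries 46, 48, 32 and 34. The groups did not overlap, with a fitted log2 fold change of 0.23 ± 0.0438 (SE, adjusted p = 0.0174 by edgeR). Cox7c, a small subunit of complex IV (ENSMUSG00000017778), had 191, 186, 182 and 173 CPM in libraries 45, 47, 31 and 33, against 170.4, 158, 157 and 160.0 CPM in libraries 46, 48, 32 and 34. The groups did not overlap, although Yy1 plasmid 46 came close to empty plasmid 33, with a fitted log2 fold change of 0.18 ± 0.0365 (SE, adjusted p = 0.0194 by edgeR). Ndufb3, of the membrane arm (ENSMUSG00000026032), had 99.2, 97.8, 97.8 and 108 CPM in libraries 45, 47, 31 and 33, against 89.3, 87.8, 87.3 and 87.8 CPM in libraries 46, 48, 32 and 34. Empty plasmid 33 was the highest and the 4 even-numbered libraries lay close together, with a fitted log2 fold change of 0.19 ± 0.0396 (SE, adjusted p = 0.0217 by edgeR).

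Ndufa1, a membrane-arm subunit encoded on the X chromosome (ENSMUSG00000016427), had 92.1, 90.6, 82.5 and 75.4 CPM in libraries 45, 47, 31 and 33, against 79.0, 71.6, 75.4 and 66.6 CPM in libraries 46, 48, 32 and 34. Its groups overlapped through empty plasmid 33, which lay below Yy1 plasmid 46, with a fitted log2 fold change of 0.22 ± 0.0472 (SE, adjusted p = 0.0329 by edgeR). Atp5e, which encodes the epsilon subunit of the central stalk (ENSMUSG00000016252), had 89.5, 95.02, 88.5 and 84.8 CPM in libraries 45, 47, 31 and 33, against 77.9, 76.2, 80.8 and 77.6 CPM in libraries 46, 48, 32 and 34. The groups did not overlap, with a fitted log2 fold change of 0.20 ± 0.0404 (SE, adjusted p = 0.0217 by edgeR). Atp5j, coupling factor 6 of the peripheral stalk (ENSMUSG00000022890), had 168, 175, 169.8 and 169.5 CPM in libraries 45, 47, 31 and 33, against 152, 150.4, 156 and 149 CPM in libraries 46, 48, 32 and 34. The groups did not overlap, with a fitted log2 fold change of 0.17 ± 0.0348 (SE, adjusted p = 0.0217 by edgeR). Ndufs6 and Atp5j are among the members with AAGATGGC in their windows, but the median odd over even value was 0.064 over the 10 members with these letters and 0.078 over the 56 without. In the plasmid comparison the log2 fold changes of the 6 were 0.02 for Ndufs6, 0.069 for Cox7c, -0.024 for Ndufb3, 0.15 for Ndufa1, 0.03 for Atp5e and 0.0058 for Atp5j.

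**Figure D4:**
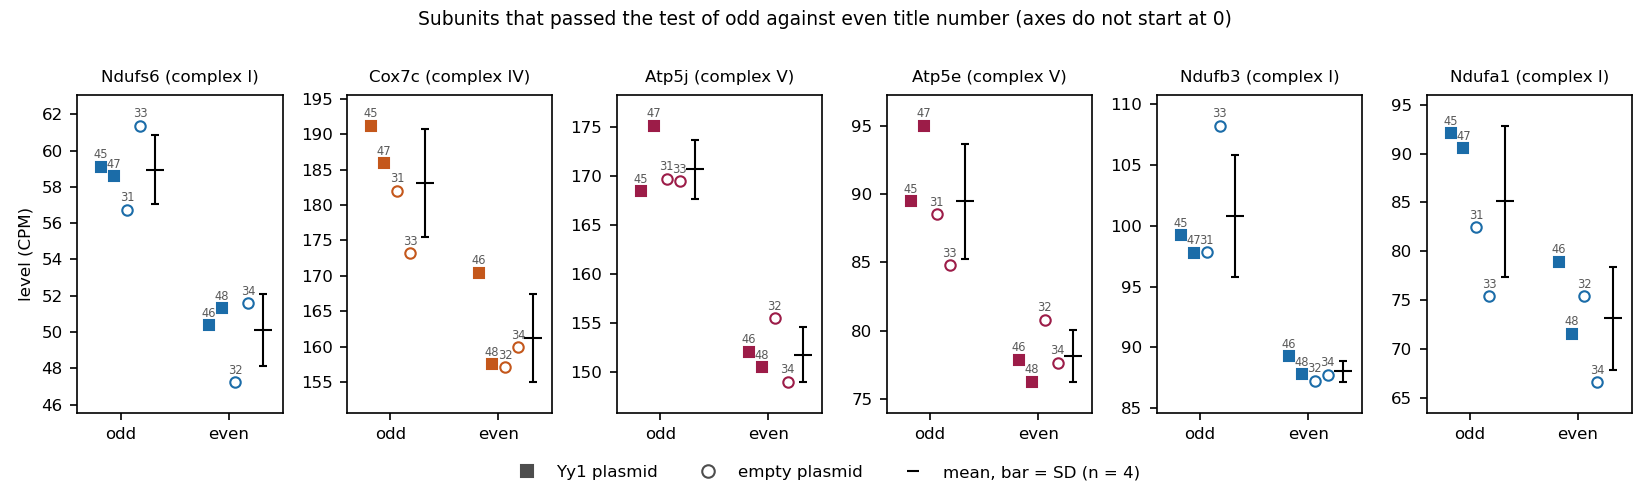
Levels in CPM of the 6 subunits called by odd over even title number, 1 point per library, odd left of even, with squares for the Yy1 plasmid, circles for the empty plasmid and the mean and SD of each group (n = 4). The odd-numbered libraries lie above the even-numbered ones without overlap for all but Ndufa1.

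The next members by p in each complex did not pass. Sdhb had a log2 fold change of 0.11 and Sdhd of 0.041. The values were 0.13 for Uqcr11, 0.15 for Uqcrb and 0.13 for Cox6c. The catalytic core subunits named above varied and did not pass either. In complex I the values were 0.057 for Ndufv1, 0.074 for Ndufv2, 0.014 for Ndufs1, 0.017 for Ndufs3, -0.032 for Ndufs7 and -0.023 for Ndufs8. In the other complexes they were 0.019 for Sdha, 0.05 for Cyc1, 0.033 for Uqcrfs1, 0.0055 for Atp5a1 and 0.046 for Atp5b.

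The odd over even values varied with the length of the transcript, among the members and among other genes alike. The tested members had a median annotated length of 810 nucleotides, against 2890 for tested protein-coding genes. All 6 called members were shorter than 1000 nucleotides. Below that length, 6 of 50 members and 23 of 794 other tested protein-coding genes were called higher. From 1000 nucleotides on, 28 of 30 members had a value above 0, against 5665 of 11747 others, or 48.2%. Under 600 nucleotides the median log2 fold change was 0.11 over 22 members and 0.12 over 145 other protein-coding genes. From 600 to 1000 it was 0.096 over 28 members and 0.051 over 649 others. From 1000 to 2000 it was 0.043 over 22 members and 0.030 over 2704 others, and from 2000 to 4000 it was 0.021 over 8 members and 0.0025 over 5360 others. Beyond 4000 nucleotides there were 0 members, and the 3683 other genes had a median of -0.033, with 36 called lower and 0 higher. With a smooth offset for transcript length in the fit, 0 members were called, the members' median was 0.020 and 53 of 80 values were above 0. In that fit the medians were 0.032 in complex I, 0.013 in complex II, 0.021 in complex III, 0.015 in complex IV and 0.025 in complex V, each lower than without the offset. Over all genes with a length, 4 were called, or 0.0273%. An offset for GC content instead, added after seeing the data, gave 6 called members, against 0.784% of all tested genes.

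**Figure D5:**
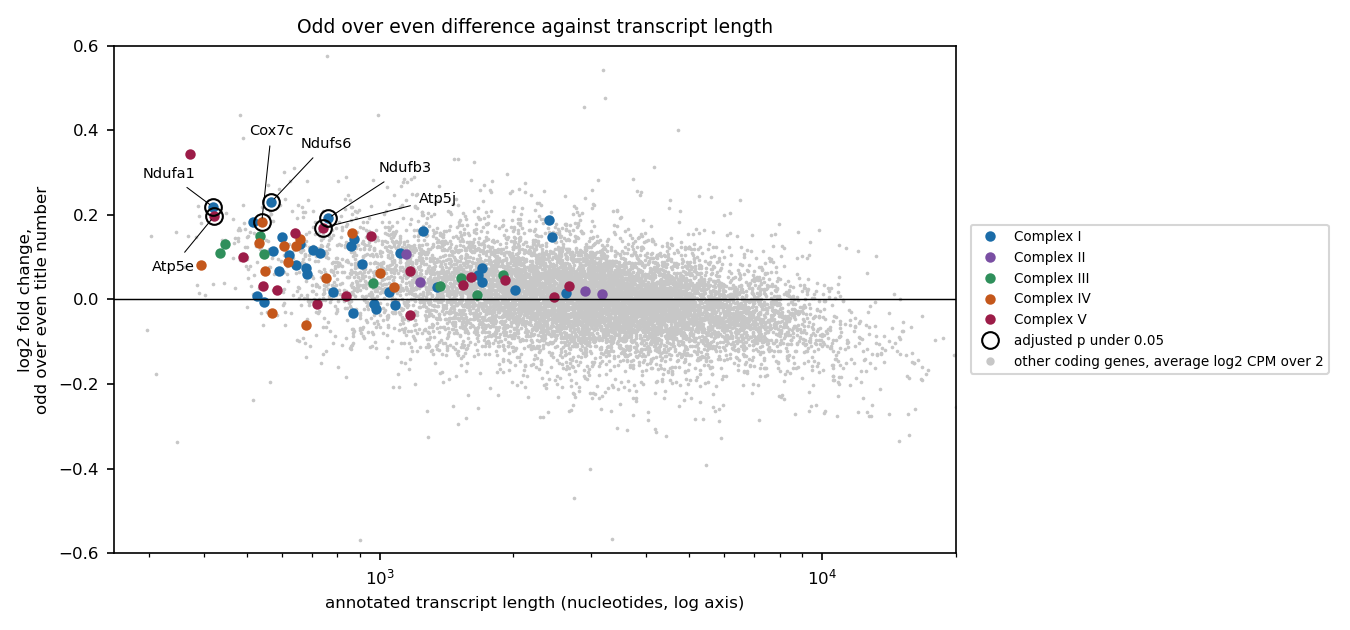
Fitted log2 fold change, odd over even title number, against annotated transcript length in nucleotides (log axis), with members coloured by complex (1 is not coloured), called members ringed and other protein-coding genes with an average log2 CPM over 2 in grey. Genes beyond the vertical axis are not drawn. Short transcripts lie above 0 and the longest below it, and the 6 called members are all shorter than 1000 nucleotides.

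The odd over even difference had the same direction within each plasmid for most members, and it rested on single libraries for its calls. Within the Yy1 plasmid alone 5 members were called, against 0.492% of all tested genes, and the members' median was 0.080. Ndufa1, Cox7c, Atp5e and Atp5j were among them, and Ndufs6 and Ndufb3 were not. The other was Ndufb6, which was not one of the 6 and had a value of -0.037 within the empty plasmid. Within the empty plasmid alone 0 members were called, against 0.0127% of all tested genes, and the median was 0.075. The value was above 0 within each plasmid for 56 of the 80 members. Without empty plasmid 34, 0 members and 0 of all genes were called, and without empty plasmid 33, 12 members were, against 1.57% of all tested genes. Without Yy1 plasmid 46 or 48, 1 member was called, against 0.153% and 0.195% of all tested genes. Each of the 6 called members had a value above 0 in all 21 alternative settings. A test of whether the difference itself varied between the plasmids called 1 of all 17151 tested genes, or 0.00583%, and 0 members. At an unadjusted p under 0.05 it found 8 members with a larger difference with the Yy1 plasmid and 4 with a smaller one, or 15% of the members against 5.81% of all tested genes. Without empty plasmid 31 it called 10 members, 5 in each direction, and 1.77% of all tested genes, with 1 library left to stand for odd numbers with the empty plasmid.

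Subunits encoded by mitochondrial DNA lay on the other side. Their median odd over even log2 fold change was -0.10, with 2 of 13 above 0, 8 lower at an unadjusted p under 0.05 and 1 called lower. Over all 16429 tested genes, 886 were lower at such a p, 40 were called lower and 62 called higher. The mitochondrial gene called, singled out for its call, was mt-Nd4, a proton-pumping subunit of complex I, with -0.17 ± 0.0394 (SE, adjusted p = 0.0404 by edgeR). Among the 46 assembly factors the median was 0.040 and 1 was called higher, Cox17, the copper chaperone of complex IV, with 0.18 ± 0.0428 (SE, adjusted p = 0.0465 by edgeR). It too was named for its call.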

How the data were processed

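Per the submitters' processing notes, reads were handled with fastp and kallisto on the mouse build GRCm39, without versions, and how transcripts were summed to genes is not given in the sources used here. The estimated counts per gene were made with kallisto and deposited by the authors without scaling for depth, per the submitters' processing notes and the values. They were rounded before testing, and all 8 columns were mapped through the sample descriptions in the labels, with 0 columns unused. Symbols and gene types came from GENCODE mouse release M21, an annotation of an older build, which matched 48278 of 75078 IDs, and transcript lengths are medians over its principal transcripts. Promoter windows came from RefSeq.

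The whole table was tested with edgeR 4.0.16 under R 4.3.3 (robust glmQLFit, then two-sided glmQLFTest) on TMM-scaled libraries, after filterByExpr at a minimum count of 10 and a minimum total of 15. P-values were adjusted by Benjamini-Hochberg over all tested genes, and 0.05 was the threshold. Single genes were also compared by exact permutation of log2(CPM + 1) over 70 arrangements, two-sided. Intervals cover the spread between libraries, and limits from a count of 0 (3 counts) cover counting error only. Since kallisto splits reads among matching transcripts, genes with near-identical copies are uncertain.

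Alternatives tried were DESeq2 1.42.0, limma-voom (limma 3.58.1), 3 other scalings (RLE, upper quartile, library size), 2 other filters, protein-coding genes only, offsets for length and, added after seeing the data, for GC content, title number as a term and each library left out. The members and lists were chosen with earlier results of these data known. Named were, per complex, the 3 members with the smallest p between plasmids, the 2 with the smallest for odd over even, the highest and lowest CPM, the catalytic core, paralog sets, called members and the 2 genes with the smallest p of each other list. The values of 1 member are not reported here, and it stays in all counts, medians and sums.

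The edgeR step was also run on simulated data with known changes, built from the means and dispersions of these libraries. Over 3 rounds the plasmid comparison recovered 61.7% of 1.2-fold, 96.0% of 1.5-fold and 99.0% of 2-fold changes. The changed genes had an average log2 CPM over 2, and 6.56% of the calls were false.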

Additional observations from a re-analysis of the deposited data

Results flagged for a closer look

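In 102 groups of 4 libraries checked, 3 had a library far from the other 3, where chance alone gives about 1 in 20. Ndufs1 was at 331 CPM in empty plasmid 33, where the next of that group was at 318 CPM. Uqcrfs1 was at 134 CPM in Yy1 plasmid 45, where the next of that group was at 122 CPM. Cox7a2l was at 82.2 CPM in Yy1 plasmid 45, where the next was at 79.6 CPM. What set these libraries apart was not tested.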

How the results depend on the processing

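Between the plasmids, 0 members were called in every alternative run. With library size alone in place of TMM, the mean summed levels of the complexes moved by less than the SD between libraries. Over all genes, 82 calls became 174 with no filter, 54 with 1 CPM in at least 4 libraries, 10 with protein-coding genes only, 20 with the length offset and 21 with the GC offset, both offsets being added after seeing the data for this count, and 65 to 87 with a library left out. For odd over even, 6 member calls became 14 with no filter, 11 with DESeq2, 0 with the length offset, 0 within the empty plasmid alone and 0 to 12 with a library left out. Over all genes, 102 calls became 340 with no filter, 261 with DESeq2, 4 with the length offset (for this count added after seeing the data), 2 within the empty plasmid alone and 0 to 269 with a library left out. The length offset took the odd over even median to 0.015 in complex IV and 0.020 over all members. For the test of the difference between plasmids, 0 member calls became 1 with no filter and 0 to 10 with a library left out. With a library left out, a lone library is assumed to vary like the others. For single members, 0 of the alternatives reversed a called direction for odd over even. Between the plasmids no member was called, so there was no called direction to reverse. The cause of these shifts was not tested, except that many of these fits test other sets of genes than the main fit. These are the fits with another filter, coding genes only, an offset, a library left out or the empty plasmid alone. With either offset, 14355 genes were tested between the plasmids, against 15916 in the main fit. For odd over even, 14666 were tested, against 16429. No paired analysis was possible because the groups share no replicate numbers (31 to 34 and 45 to 48). Depth and the number of libraries limit rare members most, with Cox6a2 at 7 to 12 counts per library the least precise.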

Other observations

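Of 13 annotated noncoding copies of member genes, 8 had 0 counts in all libraries and 2 were tested. Ndufb4c, annotated as a processed pseudogene, had 17.5, 17.6, 16.7 and 16.6 CPM with the Yy1 plasmid, against 14.5, 16.0, 16.4 and 13.5 CPM with the empty plasmid. The groups did not overlap, with a fitted log2 fold change of 0.18 ± 0.0711 (SE, adjusted p = 0.676 by edgeR). Ndufb1-ps is typed as noncoding in the annotation used here and so lies outside the member rule, while the RefSeq gene table lists it as a synonym of the protein-coding gene Ndufb1. It averaged 32.8 CPM over all libraries and was called higher in odd-numbered libraries, with a log2 fold change of 0.26 (edgeR adjusted p = 0.0346). It was singled out after its values were seen.

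Atp5k, which encodes subunit e of ATP synthase, was singled out for its spread. It had 49.7, 45.0, 51.8 and 45.6 CPM with the Yy1 plasmid, against 46.9, 39.9, 69.6 and 39.6 CPM with the empty plasmid. Every odd-numbered library lay above every even-numbered one, and empty plasmid 33 lay far above the rest. Its odd over even log2 fold change of 0.34 was the largest among the tested members and did not pass the test (edgeR adjusted p = 0.492).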
